A study of Mus musculus with 6 samples.

Results

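Glycolysis and the response to low oxygen were followed in the aorta of mice that lack eNOS, the nitric oxide synthase of the endothelium (gene Nos3). The 33 genes comprise 17 enzymes of glycolysis and lactate formation, 4 transporters of glucose or lactate and 3 kinases controlling glycolysis or pyruvate dehydrogenase. The others are 4 genes of oxygen sensing and 5 further targets of the hypoxia-inducible factors (HIFs). A gene was measured where the platform annotation gave a probe set that symbol alone, and its brightest probe set by the mean of the 6 arrays was used. This held for 29 of the 33 genes, out of 22180 genes with such a probe set. Aldoa and Ankrd37 each had 1 probe set that also names a second gene, and these 2 genes, Gpi1 and Eno1 were not analysed here. All 29 measured genes lay above the level used to leave out dim genes (4.38 log2, which 25% of probe sets lie under), and 18007 genes in all were tested.

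The series holds aortas of eNOS-deficient mice (3 samples, with the numbers 11, 15 and 19 in their titles) and of wild-type mice of matched age (3 samples, numbers 2, 3 and 5), with no treatment named. RNA of each was read on 1 Affymetrix array as log2 signal, on which a difference of 1 is a 2-fold difference. The sources used here do not give the targeted allele, the strain, the sex or the age itself. They also do not say whether each sample is a separate animal, and a p-value therefore covers only the spread between these samples.

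Glycolysis splits glucose into pyruvate in the cytosol and yields ATP without oxygen, and lactate dehydrogenase turns the pyruvate into lactate when it is not burnt in mitochondria. When oxygen is plentiful, prolyl hydroxylases mark HIF-1α and HIF-2α for destruction. When oxygen is scarce the HIF proteins persist, pair with ARNT and bind a short DNA core, A or G followed by CGTG, in genes of glucose uptake, glycolysis and lactate export. The HIF proteins are controlled mainly through their stability, so the messenger RNA of their targets is the more usual array readout of the pathway. Nitric oxide is known to act on prolyl hydroxylases and on mitochondrial respiration, and smooth muscle of the aorta makes much lactate even in the presence of oxygen.

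The core that HIF binds was looked for as ACGTG and GCGTG on both strands of the 250 bases before each transcription start, in RefSeq promoters of GRCm38.p6, with overlapping matches joined into 1 run. Of the 33 genes 30 had 43 promoters in that table, and 35 of these 43 (81.4%) held at least 1 run, against 38.6% of all 32851 promoters. At least 2 runs were found in 41.9% of the genes' promoters and 13.5% of all promoters. Many of the genes are known HIF targets, and the cause of the higher share was not tested. Base composition was not matched, overlapping promoters of a gene were counted separately, and a match does not show binding. Below are 5 promoters, chosen after the array values were seen. Ldha, Pgk1, Bnip3 and Egln3 were taken as known HIF targets, and Tpi1 for one of the larger differences rather than as a non-target. Pfkm, with a difference of 0.56, has 4 starts with 0 to 2 runs and is not shown. The 5 are Ldha (lactate dehydrogenase A) at chr7:46845554-46845803 (plus strand), Pgk1 (phosphoglycerate kinase) at chrX:106186850-106187099 (plus strand), Bnip3 (a mitophagy receptor) at chr7:138909507-138909756 (minus strand), Egln3 (the prolyl hydroxylase PHD3) at chr12:54203875-54204124 (minus strand) and Tpi1 (triose phosphate isomerase) at chr6:124814159-124814408 (minus strand). Each reads 5′ to 3′ on the strand of its gene and ends at the base before the start. Capitals mark the runs of the core, and Ldha is shown at the first of its 2 starts.
Ldha: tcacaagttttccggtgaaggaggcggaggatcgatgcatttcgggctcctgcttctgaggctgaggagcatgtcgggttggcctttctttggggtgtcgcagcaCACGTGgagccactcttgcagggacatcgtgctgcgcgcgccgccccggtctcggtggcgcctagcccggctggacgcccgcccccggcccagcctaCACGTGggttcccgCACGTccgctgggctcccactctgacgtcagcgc
Pgk1: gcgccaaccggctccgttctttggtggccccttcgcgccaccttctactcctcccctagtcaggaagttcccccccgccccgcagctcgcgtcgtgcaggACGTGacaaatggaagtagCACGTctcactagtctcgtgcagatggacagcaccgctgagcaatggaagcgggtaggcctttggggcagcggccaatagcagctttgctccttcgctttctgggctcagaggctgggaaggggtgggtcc
Bnip3: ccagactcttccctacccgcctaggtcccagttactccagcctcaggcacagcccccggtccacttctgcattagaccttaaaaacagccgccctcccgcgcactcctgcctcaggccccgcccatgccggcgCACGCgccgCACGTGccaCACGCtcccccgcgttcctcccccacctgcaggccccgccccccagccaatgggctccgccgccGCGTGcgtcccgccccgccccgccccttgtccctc
Egln3: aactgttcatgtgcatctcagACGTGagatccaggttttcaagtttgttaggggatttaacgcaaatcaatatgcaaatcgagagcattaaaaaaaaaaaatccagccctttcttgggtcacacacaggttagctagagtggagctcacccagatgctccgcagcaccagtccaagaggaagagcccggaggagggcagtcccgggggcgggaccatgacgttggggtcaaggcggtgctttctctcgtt
Tpi1: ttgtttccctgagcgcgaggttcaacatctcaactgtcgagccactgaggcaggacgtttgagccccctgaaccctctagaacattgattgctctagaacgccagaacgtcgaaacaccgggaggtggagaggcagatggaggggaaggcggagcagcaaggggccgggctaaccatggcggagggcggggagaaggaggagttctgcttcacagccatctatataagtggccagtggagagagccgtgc
Bnip3 held 4 runs, the most of any promoter in the list, Ldha held 3, Pgk1 2, Egln3 1 and Tpi1 0. The array values of these 5 genes follow.

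What the arrays hold besides aorta bears on every value below, because glycolytic isozymes differ between tissues. Smooth muscle markers were present on all arrays, with list means of 9.37 to 9.66 in eNOS-deficient aorta and 8.94 to 9.39 in wild-type aorta. Brown adipocyte markers were bright as well (11.36 to 11.56 and 11.12 to 11.27). Higher without overlap in eNOS-deficient aorta were 5 of 8 smooth muscle and 4 of 7 brown adipocyte genes, beside 13.1% of all genes. Skeletal muscle markers (15 genes) ranged from 9.20 on wild type 3 to 11.53 on eNOS-deficient 11, with 10.95 on wild type 5. Squamous epithelium markers (14 genes) had list means of 6.13, 5.41 and 8.80 on wild type 2, 3 and 5 and of 5.11 to 5.23 in eNOS-deficient aorta. Krt4, a keratin of that epithelium, measured 9.64 on wild type 2 and 13.33 on wild type 5, and at most 5.16 in eNOS-deficient aorta. Macrophage markers were higher without overlap for 8 of 8 genes (list means of 8.43 to 8.81 in eNOS-deficient aorta and at most 7.97 in wild-type aorta), and fibroblast markers for 4 of 8 (9.20 to 9.45 and 8.56 to 9.02). Lymphocyte markers (7 genes) were low on eNOS-deficient 11, at 6.33 against 8.07 to 8.80 on the others. The part of these cell types in the results below was not tested beyond the covariate fits for muscle and epithelium. Y-linked genes averaged 7.76, 4.71 and 8.00 on eNOS-deficient 11, 15 and 19, with Xist at 5.65, 11.88 and 8.29, while the wild-type arrays lay at 3.47 to 3.63 and 12.08 to 12.09. Sex and genotype therefore cannot be told apart here. Signal of both kinds was present on eNOS-deficient 15 and 19, and eNOS-deficient 15 lay nearest the wild-type arrays on each kind. Nos3 itself measured 7.13, 7.39 and 7.27 on the eNOS-deficient arrays and 7.99, 7.88 and 7.36 on the wild-type arrays (limma adjusted p = 0.399), so its signal does not check the label of each array. In bulk tissue, fewer cells of a type and less RNA per cell cannot be told apart.

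No gene of glycolysis or of the hypoxia response differed between the genotypes past the test. By limma, 0 of the 29 had a Benjamini-Hochberg adjusted p under 0.05, against 5 of 18007 genes (0.0278%), and the smallest adjusted p among them was 0.495. At an unadjusted p under 0.05 there were again 0 of 29, where 11.6% of all genes passed. The 3 eNOS-deficient arrays overlapped the 3 wild-type arrays for every one of the 29, while 19.5% of all genes had no overlap. Differences (eNOS-deficient minus wild type) were positive for 21 and negative for 8, a share of 72.4% positive beside 56.6% of all genes. Their median was 0.10 log2, beside 0.04 for all genes. For 23 of the 29 (79.3%) the difference was within 0.2 log2 either way, as for 60.5% of all genes, and the median size was 0.11 against 0.15. A difference of at least 0.5 log2 was seen for 2 of the 29, Egln3 and Pfkm, and for 7.56% of all genes.

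A test that is not passed does not show equal levels, and the 95% intervals give the range that these arrays allow. For 27 of the 29 genes (93.1%, beside 90.2% of all genes) the interval lay wholly inside 1 log2, a 2-fold difference, in either direction. For 19 it lay inside a fold of 1.5, a share that was not counted over all genes. Egln3 and Pfkm were the exceptions to the first, with intervals up to 1.96 and 1.63. The median standard error was 0.16 for these genes and 0.16 for all genes.

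**Figure D1:**
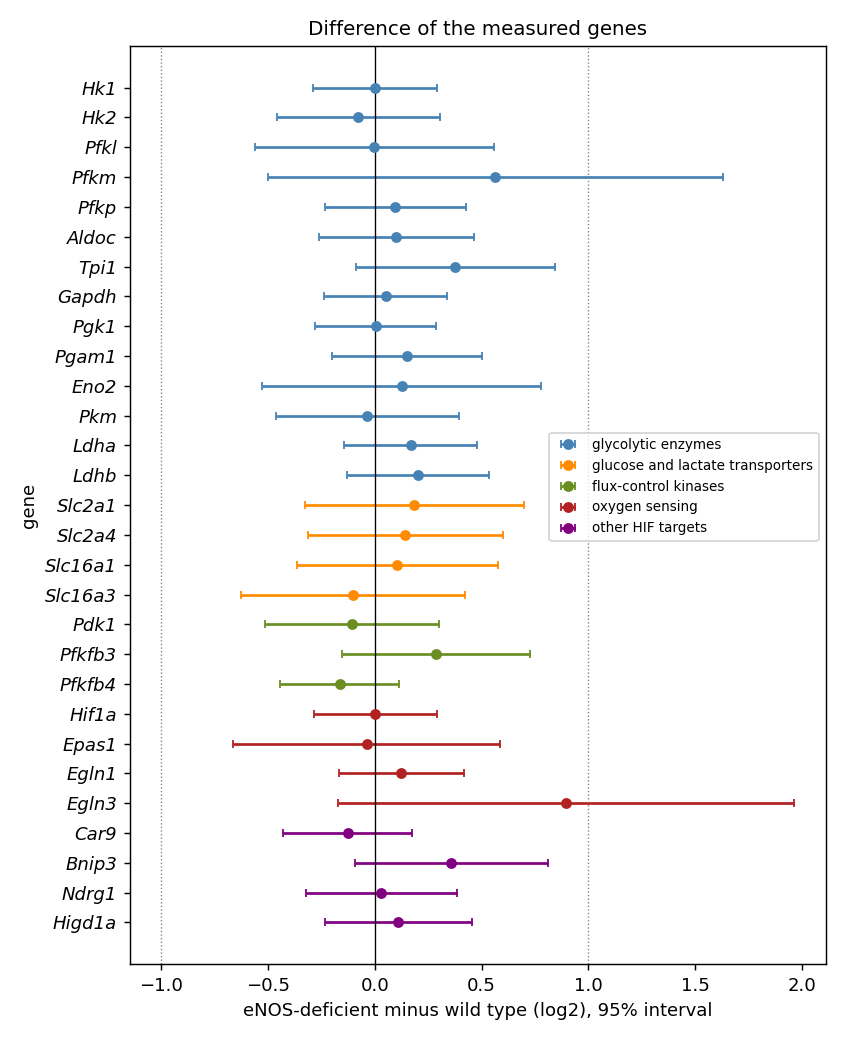
Difference between eNOS-deficient and wild-type means on the log2 scale (horizontal axis) for each of the 29 measured genes, with points coloured by role, bars for the 95% interval from limma (n = 3 arrays per group) and dotted lines at a 2-fold difference. Every interval crosses 0, and those of Egln3 and Pfkm alone reach past the dotted lines.

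The enzymes are taken in the order of the pathway. Hexokinases, which trap glucose in the cell as glucose 6-phosphate, differed little. Hk1, the widely expressed form, measured 7.38, 7.66 and 7.57 on eNOS-deficient 11, 15 and 19 and 7.49, 7.60 and 7.52 on wild type 2, 3 and 5. Hk2, the insulin- and HIF-responsive form, measured 9.91, 9.93 and 9.48 against 9.82, 10.00 and 9.73. Both groups spanned the same levels, with Hk2 lowest on eNOS-deficient 19. The differences were 0.00094 for Hk1 (95% interval -0.29 to 0.29) and -0.08 for Hk2 (-0.46 to 0.30).

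Phosphofructokinase, the committed step of glycolysis, has liver (Pfkl), muscle (Pfkm) and platelet (Pfkp) forms, and these behaved unlike each other across arrays. Pfkm measured 10.90, 9.46 and 9.39 on eNOS-deficient 11, 15 and 19 and 9.30, 8.81 and 9.96 on wild type 2, 3 and 5. The highest array was eNOS-deficient 11 and the next was wild type 5, so the groups overlapped and the range over arrays was 2.10 log2, the widest of the 29. Its difference of 0.56 (standard error 0.45, limma adjusted p = 0.673) became 0.07 without eNOS-deficient 11 and 0.87 when wild type 5 was left out. The skeletal muscle marker mean placed the 6 arrays in exactly the same order as Pfkm (11.53, 10.14 and 10.08 against 9.95, 9.20 and 10.95). Pfkm was the only 1 of the 29 genes with exactly that order, and with the marker mean as a covariate its difference was 0.10. Egln3, taken up below, departed from that order only in having wild type 5 above eNOS-deficient 11. How many of all genes share the order was not counted. Pfkl, in contrast, was lowest on wild type 5 (9.92) and eNOS-deficient 19 (10.07) and lay between 10.36 and 10.69 on the other arrays, with a difference of -0.0032 (interval -0.56 to 0.56). Pfkp lay between 9.26 and 9.68 on all arrays and differed by 0.10 (-0.23 to 0.42).

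**Figure D2:**
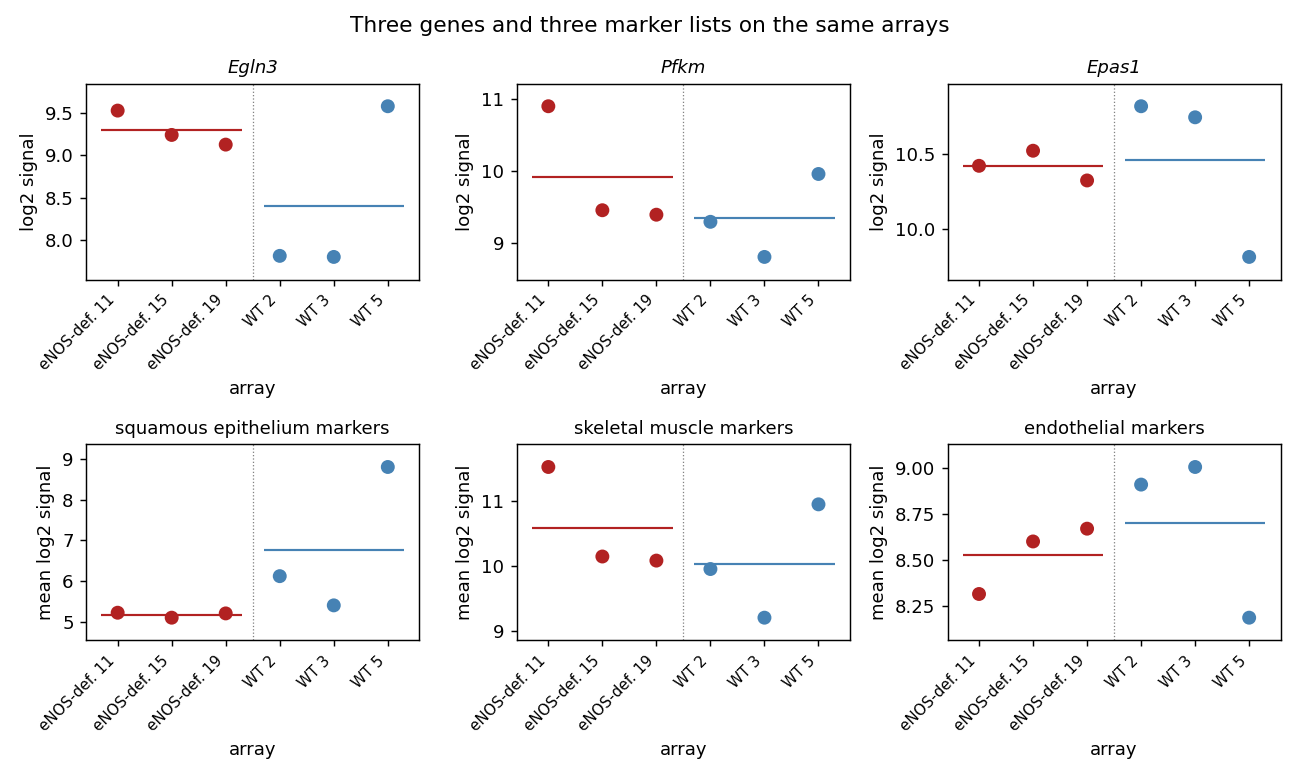
Log2 signal (vertical axes) of Egln3, Pfkm and Epas1 on each of the 6 arrays (upper row), above the mean log2 signal of the squamous epithelium, skeletal muscle and endothelial marker lists on the same arrays (lower row), with eNOS-deficient arrays in red, wild-type arrays in blue and a line at each group mean. Wild type 5 lies apart from wild type 2 and 3 for Egln3 (9.57 against 7.82 and 7.81) and for Epas1 (9.81 against 10.82 and 10.75), and Pfkm follows the order of the muscle markers.

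Aldolase and triose phosphate isomerase split the sugar and interconvert the fragments. Aldoc, the aldolase form known from brain, lay between 6.16 and 6.63 on all arrays and differed by 0.10 (-0.26 to 0.46). Tpi1, the isomerase, measured 11.78, 11.41 and 11.21 on eNOS-deficient 11, 15 and 19 and 10.92, 10.95 and 11.40 on wild type 2, 3 and 5. All 3 eNOS-deficient arrays thus lay above wild type 2 and 3, and wild type 5 lay just under eNOS-deficient 15. The difference of 0.38 (standard error 0.20, limma adjusted p = 0.508) was 0.53 without wild type 5 (adjusted p = 0.276), 0.22 without eNOS-deficient 11 and 0.21 with the skeletal muscle covariate.

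The later steps of the pathway, which harvest ATP, showed small differences. Gapdh, glyceraldehyde 3-phosphate dehydrogenase, measured 13.06, 13.10 and 12.84 on the eNOS-deficient arrays against 12.94, 12.90 and 13.01 on the wild-type arrays, a range of 0.26 over all 6. Its difference was 0.05 (-0.24 to 0.34). Gapdh is uncertain as a single gene, because it has many near-identical copies: 3 probe sets name it alone, with differences of 0.03 to 0.06, and 8 name it with another gene. Pgk1, on the X chromosome, lay between 11.45 and 11.71 and differed by 0.0032 (-0.28 to 0.29). Pgam1, phosphoglycerate mutase, differed by 0.15 on its brighter probe set (10.09 to 10.62 over the arrays) and by 0.51 on a dimmer one with a mean of 8.50, so the 2 probe sets disagree in size. Pgam1 too has near-identical copies, and which copy each probe set reads was not tested.

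Eno2, the enolase of neurons, measured 6.48, 6.35 and 7.41 on eNOS-deficient 11, 15 and 19 and 6.71, 6.41 and 6.74 on wild type 2, 3 and 5. A single array, eNOS-deficient 19, stood above the rest, and the difference of 0.13 became -0.21 without it. Pkm, pyruvate kinase of muscle and most other tissues, measured 11.78, 11.73 and 11.30 against 11.86, 11.67 and 11.39, with the lowest array in each group near the other. It differed by -0.03 (-0.46 to 0.39). These probe values do not separate the splice forms of Pkm.

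Lactate dehydrogenase is built from the A form, favoured for making lactate, and the B form, favoured for using it. Ldha measured 8.41, 8.37 and 8.08 on the eNOS-deficient arrays and 8.06, 8.11 and 8.20 on the wild-type arrays. Ldhb measured 11.06, 10.77 and 10.65 against 10.63, 10.55 and 10.70. For both, eNOS-deficient 11 and 15 lay above every wild-type array and eNOS-deficient 19 lay among them. The differences were 0.17 (-0.14 to 0.48) and 0.20 (-0.13 to 0.53), both positive and neither past the test.

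**Figure D3:**
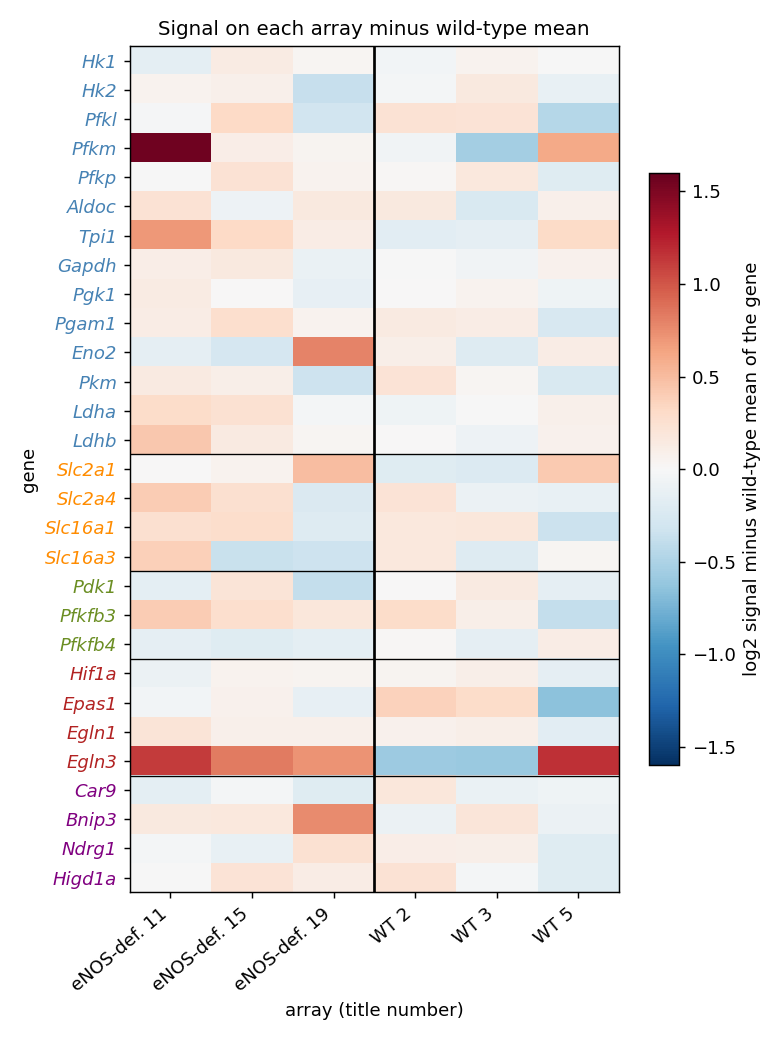
Log2 signal of each of the 29 genes (rows, names coloured by role) on each array (columns) minus the wild-type mean of that gene, with red above and blue below it and a vertical line between the genotypes. Most cells are pale, and the darkest rows are Egln3, low on wild type 2 and 3 only, and Pfkm, highest on eNOS-deficient 11.

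Of the transporters, Slc2a1 (GLUT1), the constitutive and HIF-inducible glucose carrier, measured 7.98, 8.03 and 8.46 on eNOS-deficient 11, 15 and 19 and 7.78, 7.75 and 8.39 on wild type 2, 3 and 5. It was highest on 1 array of each group, eNOS-deficient 19 and wild type 5. The difference was 0.19 (-0.33 to 0.70), 0.39 without wild type 5 (limma adjusted p = 0.365) and 0.031 without eNOS-deficient 19. It was 0.089 without wild type 2 and 0.074 without wild type 3. A dimmer Slc2a1 probe set, with a mean of 4.25 under the dim level, gave -0.021, the opposite sign. Slc2a4 (GLUT4), the insulin-regulated carrier of muscle and fat, measured 10.52, 10.37 and 9.87 against 10.33, 10.01 and 9.99 and differed by 0.14 (-0.31 to 0.60). Slc16a1 (MCT1), which carries lactate and pyruvate, was low on eNOS-deficient 19 (10.79) and wild type 5 (10.66) and lay at 11.17 to 11.28 on the others. Slc16a3 (MCT4), the lactate exporter of glycolytic cells and a HIF target, measured 6.82, 6.07 and 6.10 against 6.60, 6.23 and 6.47. The differences were 0.11 for Slc16a1 and -0.10 for Slc16a3, both with intervals across 0.

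The differences of the kinases that control flux had mixed signs, and none passed the test. Pfkfb3, which makes the activator of phosphofructokinase and is known for driving glycolysis in endothelium, measured 9.43, 9.30 and 9.21 on the eNOS-deficient arrays and 9.32, 9.12 and 8.65 on the wild-type arrays. Wild type 5 was the lowest, and the difference of 0.29 (-0.15 to 0.72) was 0.10 without it. The endothelial marker mean was lowest on wild type 5 too (8.18, against 8.31 to 9.01 on the others), and its part in the result was not tested. Pfkfb4, a paralogue induced by HIF, measured 6.31, 6.26 and 6.29 against 6.47, 6.31 and 6.57. The highest eNOS-deficient array was level with the lowest wild-type array, and the difference was -0.16 (-0.44 to 0.12). Pdk1, a pyruvate dehydrogenase kinase, measured 8.41, 8.77 and 8.18 against 8.56, 8.70 and 8.42 and differed by -0.11 (-0.52 to 0.30). A dimmer Pdk1 probe set, with a mean of 2.86 under the dim level, gave -0.12.

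Among the oxygen-sensing genes, neither HIF α subunit passed the test, and the interval was wider for Epas1 than for Hif1a. Hif1a lay between 9.11 and 9.35 on all arrays and differed by 0.0017 (-0.29 to 0.29), on a probe set with a mean of 9.26. A dimmer probe set with a mean of 4.84, near the dim level, gave 0.35. On it the groups did not overlap, with at least 4.93 in eNOS-deficient and at most 4.91 in wild-type aorta. Epas1 (HIF-2α), which is rich in endothelium, measured 10.42, 10.52 and 10.32 on eNOS-deficient 11, 15 and 19 and 10.82, 10.75 and 9.81 on wild type 2, 3 and 5. Wild type 2 and 3 thus stood above every eNOS-deficient array and wild type 5 below every one. The difference of -0.04 with all arrays (-0.66 to 0.59) averages over that split. It was -0.36 without wild type 5 (limma adjusted p = 0.255) and -0.53 with the epithelium covariate. The endothelial marker list, 10 genes, showed the like placement. Its means were 8.91, 9.01 and 8.18 on wild type 2, 3 and 5 and 8.31, 8.60 and 8.67 on eNOS-deficient 11, 15 and 19. The part of endothelial content in the Epas1 values was not tested.

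The prolyl hydroxylases gave the largest difference of the list. Egln3, which encodes PHD3 and is itself induced by HIF, measured 9.52, 9.24 and 9.12 on eNOS-deficient 11, 15 and 19 and 7.82, 7.81 and 9.57 on wild type 2, 3 and 5. Wild type 5 was the highest of all 6 arrays, while wild type 2 and 3 lay more than 1 log2 below every eNOS-deficient array. With all arrays the means were 9.29 ± 0.21 (SD, n = 3) and 8.40 ± 1.02, a difference of 0.89 (standard error 0.46, 1.86-fold, limma adjusted p = 0.495). Without wild type 5 the difference was 1.48 (limma adjusted p = 0.0838). Without both that array and eNOS-deficient 11 it was 1.37 (limma adjusted p = 0.0646), so it did not pass in either case. Wild type 5 was the only array that made the groups overlap, so leaving it out had to raise the difference. Leaving out any single array gave 0.60 to 1.48. With the epithelium marker mean as a covariate it was 1.79, and with the skeletal muscle marker mean 0.52. Wild type 5 has the highest epithelium signal (8.80) and the second-highest skeletal muscle signal (10.95), and the part of either in its Egln3 value was not tested beyond these fits. Egln1, which encodes PHD2, the main oxygen sensor, lay between 9.54 and 9.92 and differed by 0.12 (-0.17 to 0.42).

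Of the other HIF targets, Bnip3 measured 9.25, 9.25 and 9.84 on the eNOS-deficient arrays and 8.99, 9.28 and 9.00 on the wild-type arrays. It was highest on eNOS-deficient 19, and wild type 3 lay just above the other two eNOS-deficient arrays. The difference was 0.36 (standard error 0.19, limma adjusted p = 0.513), or 0.16 without eNOS-deficient 19. Car9, the tumour-associated carbonic anhydrase that is a sensitive HIF-1 target, measured 5.50, 5.64 and 5.47 against 5.84, 5.55 and 5.59, with a difference of -0.13 (-0.43 to 0.17). That probe set, with a mean of 5.60, lies near the array medians of 5.55 to 5.68. A second Car9 probe set with a mean of 5.33 gave 0.027, the opposite sign. Ndrg1, a stress-responsive gene, and Higd1a, a mitochondrial protein of the hypoxia response, differed by 0.03 (-0.32 to 0.38) and 0.11 (-0.23 to 0.45). A dimmer Ndrg1 probe set with a mean of 5.40 gave 0.19. Egln3, Tpi1 and Bnip3, with 1, 0 and 4 core runs in the promoters above, and Ldha and Pgk1, with 3 and 2, had differences of 0.89, 0.38, 0.36, 0.17 and 0.0032, none past the test.

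**Figure D4:**
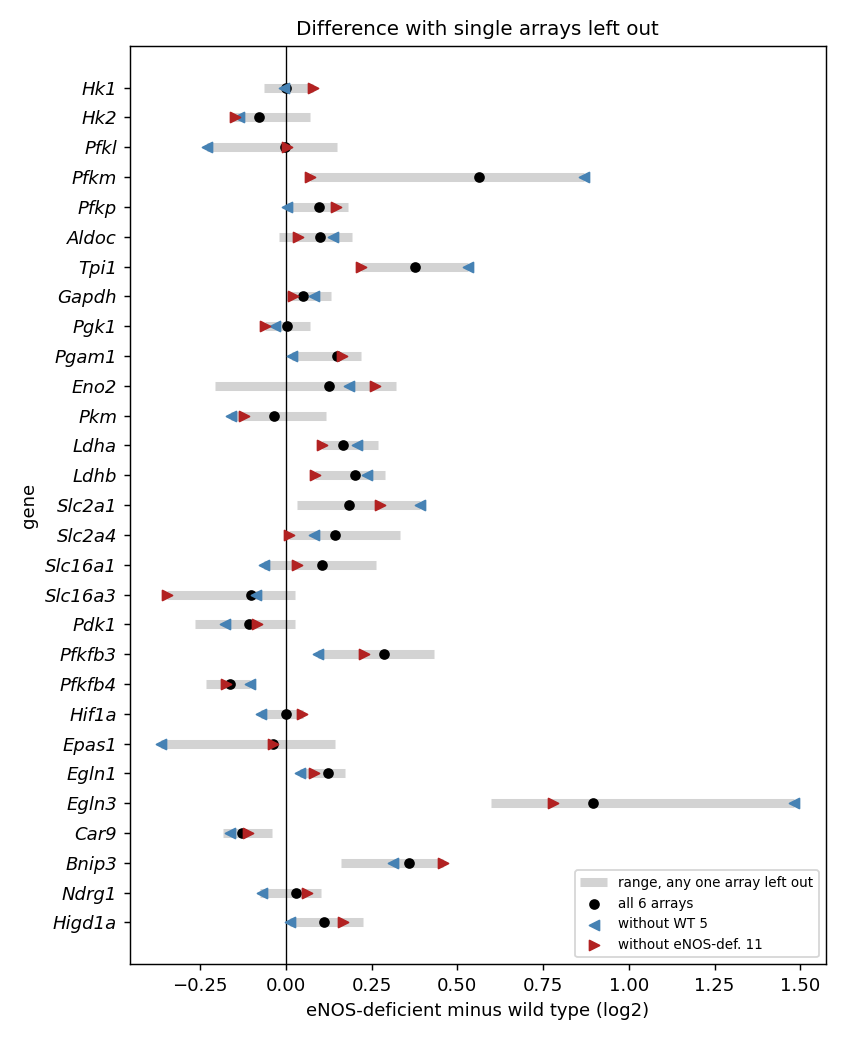
Difference between eNOS-deficient and wild-type means on the log2 scale (horizontal axis) for each of the 29 genes, with black points for all 6 arrays, blue triangles without wild type 5, red triangles without eNOS-deficient 11 and grey bars for the range over leaving out each of the 6 arrays. The widest bars are those of Egln3 (0.60 to 1.48) and Pfkm (0.07 to 0.87).

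Wild type 5 was the lowest array for 10 of the 29 genes and eNOS-deficient 19 for 7, while eNOS-deficient 11 was the highest for 10. Without wild type 5, Egln3 and Tpi1 were higher and Epas1 lower at an unadjusted p under 0.05, beside 8.93% of all genes higher and 5.93% lower in that fit, and the list's median was 0.01. For Egln3, Tpi1 and Epas1, wild type 5 lay apart from the other wild-type arrays, toward or past the eNOS-deficient arrays. Its removal therefore had to widen those differences. No gene of the list passed an adjusted p in the limma fit without wild type 5 or in any other that was run.

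The wider pathway, listed as 37 other genes of glucose metabolism and 40 other genes of the hypoxia response, gave 0 calls after adjustment by limma. At an unadjusted p under 0.05, 2 of 30 glucose genes tested were higher (6.67%, beside 7.86% of all genes) and 0 lower (beside 3.72%). Their median difference was 0.16. Those were Pgm2, a phosphoglucomutase, at 7.45 ± 0.11 against 7.14 ± 0.07, and Pdk2, the pyruvate dehydrogenase kinase of most tissues, at 10.35 ± 0.24 against 9.97 ± 0.05 (SD, n = 3 each). Bpgm, Mpc1 and Pklr followed with differences of -0.37, 0.24 and -0.22. Eno3, the muscle enolase, had the same order of arrays as the skeletal muscle markers, from 9.17 on wild type 3 to 11.88 on eNOS-deficient 11, and was chosen after its values were seen.

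Of 36 other hypoxia genes tested, 5 (13.9%) had a positive difference at an unadjusted p under 0.05 and 1 (2.78%) a negative one, beside 7.86% and 3.72% of all genes, with a median of 0.05. The groups did not overlap for 7 of the 36 (19.4%), close to the 19.5% of all genes. Ppp1r3c, a glycogen-targeting subunit of protein phosphatase 1, measured 9.99, 9.81 and 9.65 on eNOS-deficient 11, 15 and 19 and 8.80, 9.15 and 9.53 on wild type 2, 3 and 5, a difference of 0.66 without overlap (limma adjusted p = 0.324). Ak4, a mitochondrial adenylate kinase, differed by 0.52, and Adm, the vasodilator adrenomedullin, by 0.44, both without overlap (adjusted p = 0.343 and 0.386). P4ha1, a collagen prolyl hydroxylase, differed by 0.74, with wild type 5 (8.85) above eNOS-deficient 11 and 15 (8.79 and 8.82). Plod1, a lysyl hydroxylase of collagen, differed by 0.37 and was the last of the 5. For Ppp1r3c, Ak4, Adm and P4ha1, as for Egln3, wild type 5 was the highest wild-type array, whereas for Plod1 it was the lowest (7.62 against 8.11 and 8.04). Car12, a carbonic anhydrase, was the lower one, at 5.19 ± 0.10 against 6.34 ± 0.83, without overlap. It measured 6.12, 5.65 and 7.26 on wild type 2, 3 and 5 and at most 5.28 in eNOS-deficient aorta. Wild type 5 is the array with the highest epithelium signal, and the part of that signal in Car12 was not tested. Vegfa, the angiogenic growth factor and textbook HIF target, measured 10.26 ± 0.15 against 10.19 ± 0.20 and was named for that role after its values were seen.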

How the data were processed

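The deposited table holds log2 values of 41345 probe sets, which per the submitters' processing notes the authors made with RMA (background correction, quantile normalization, probe summary) in Affymetrix Expression Console 1.3.1. They were used as deposited, since scanner values were not analysed here. RMA pulls dim values together, so differences near the dim level can be understated. Of the probe sets, 23521 name 1 gene. The brightest of a gene was used, genes with a mean under the 25th percentile were left out, and 18007 genes entered 1 fit by limma (version 3.58.1, R 4.3.3; eBayes after lmFit, two-sided, no covariate, 3 arrays per group, Benjamini-Hochberg over all genes at 0.05). Array medians were 5.55 to 5.59 (eNOS-deficient) and 5.61 to 5.68 (wild type), and Pearson's r across probe sets was 0.947 to 0.983. The number of arrays limits the precision. The genes and lists were chosen with earlier results of these data known. The naming rule took genes with an unadjusted p under 0.05 or no overlap, the 2 brightest and 2 dimmest, paralogues, and up to 5 genes of each wider list by smallest p. Other values per array were added after they were seen. Alternatives were other dim filters, variance models, probe-set means, centring, repeated quantile normalization, array weights, marker covariates and arrays left out. The fit was tested on simulated data. Promoters came from RefSeq (GRCm38.p6), and the files name no build. Plots used matplotlib 3.10.9 in Python 3.11.15.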

Additional observations from a re-analysis of the deposited data

How the results depend on the processing

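No paired analysis was possible because the groups share no replicate number. None of the 29 genes passed an adjusted p in limma under any alternative, and 8 of the 29 kept the sign of their difference under all of them. Those 8 were Bnip3, Egln3, Gapdh, Ldha, Ldhb, Pfkfb3, Pfkfb4 and Tpi1. The other 21 turned sign under at least 1 alternative, none past the test, and the cause was not tested. With a Y-linked covariate, chosen after seeing the data, the sign turned for Hk2 (0.19), Pfkl (0.48), Pfkm (-0.035), Aldoc (-0.18), Eno2 (-0.53), Pkm (0.17), Slc2a1 (-0.017), Pdk1 (0.39), Epas1 (0.084), Car9 (0.020) and Ndrg1 (-0.22). With array weights, the sign turned for Pgk1 (-0.021), Eno2 (-0.017), Hif1a (-0.021) and Ndrg1 (-0.11). With arrays centred on their medians, the sign turned for Pfkl (0.062), Pkm (0.031) and Epas1 (0.028). Without both eNOS-deficient 11 and wild type 5, the sign turned for Pgk1 (-0.093), Slc2a4 (-0.050), Slc16a1 (-0.14), Hif1a (-0.025), Egln1 (-0.0023) and Ndrg1 (-0.036). After repeated quantile normalization, the sign turned for Hk1 (-0.059), Pfkp (-5.6e-05), Pgk1 (-0.051), Hif1a (-0.085) and Ndrg1 (-0.058). With the skeletal muscle covariate, the sign turned for Pfkl (0.12), Pgk1 (-0.011) and Epas1 (0.13). With the epithelium covariate, the sign turned for Hk1 (-0.022), Pfkp (-0.063), Pgk1 (-0.051), Pgam1 (-0.050), Slc16a1 (-0.16), Hif1a (-0.11), Egln1 (-0.0031), Ndrg1 (-0.11) and Higd1a (-0.018). Leaving out single arrays gave differences across 0 for Hk1 (-0.062 to 0.078), Hk2 (-0.16 to 0.070), Pfkl (-0.23 to 0.15), Aldoc (-0.020 to 0.19), Pgk1 (-0.060 to 0.069), Eno2 (-0.21 to 0.32), Pkm (-0.16 to 0.12), Slc16a1 (-0.064 to 0.26), Slc16a3 (-0.35 to 0.026), Pdk1 (-0.27 to 0.028), Hif1a (-0.071 to 0.051), Epas1 (-0.36 to 0.14) and Ndrg1 (-0.075 to 0.10).

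Counts moved too. Over all genes, 5 were called, against 3 without a dim filter, 2 with the mean of probe sets, 2 after repeated quantile normalization, 119 with array weights, 1 with the skeletal muscle covariate, 2 with the epithelium covariate, 0 with the Y-linked covariate, 2 without both eNOS-deficient 11 and wild type 5, and 0 to 6 with single arrays left out. In the list, 0 genes were higher at an unadjusted p under 0.05 (7.86% of all genes), against 2 with array weights (11.8% of all genes). With the muscle covariate there was 1, Bnip3 (8.85%), and with the epithelium covariate 3 (8.14%). There were 3 without both arrays (9.47%) and 0 to 2 with single arrays left out (4.96% to 8.93%). Lower were 0 (3.72% of all genes), against 1 (Epas1) with the epithelium covariate (5.97%) and 1 without both arrays (6.20%). Single arrays left out gave 0 to 1 (2.38% to 5.93%). The list's median of 0.10 was -0.022 with the epithelium covariate, 0.031 after repeated quantile normalization (all genes 0.033), 0.059 with array weights, 0.17 with centred arrays, 0.033 without both arrays, 0.17 with the Y-linked covariate and 0.012 to 0.13 with single arrays left out. Groups without overlap numbered 0 (19.5% of all genes), against 3 with centred arrays (21.9%) and 9 without both arrays (48.0%). With single arrays left out there were 2 to 6 (26.4% to 35.3% of all genes). Fewer arrays make overlap rarer. Centring raised the median of all genes from 0.04 to 0.10. Only 3 arrays per group were read, and the interval of each difference is the limit on what could be seen.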
